A study of Mus musculus with 12 samples.

Results

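The genes described here were 10 members of the Egr and Ier serum response group, chosen by symbol: Egr1, Egr2, Egr3, Ier2, Ier3, Ier5, Nr4a1, Btg1, Maff and Mafk. Each had a single entry among the 17419 genes of the table. The cells were wild-type NIH-3T3, an immortalised line of mouse fibroblasts, grown in DMEM with 10% NCS as the labels spell it. The cells were left without 4-thiouridine (no4sU) or labelled with 4sU at 800 µM for 15, 30, 60, 90 or 120 min, with 2 libraries, A and B, in each of the 6 groups. 4sU is a uridine analogue that enters RNA made during the labelling. Iodoacetamide alters the incorporated 4sU so that sequencing reports cytosine there, and from these conversions the authors' model estimates the share of a gene's RNA that is new, the new-to-total ratio (NTR). The labels do not say whether A and B were separate cultures, so the p-values below measure only the spread between these libraries, which may be technical.

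Immediate early genes are transcribed within minutes of a growth factor or serum signal, without new protein synthesis. The signal runs from receptors through Ras, Raf, MEK and ERK to ternary complex factors, which sit with the serum response factor SRF on CArG boxes in the promoters. Their mRNAs are as a rule short-lived, and AU-rich elements of the 3′ untranslated region, built from ATTTA pentamers, are a known signal for rapid decay. Egr1, Egr2 and Egr3 encode zinc finger transcription factors, Nr4a1 an orphan nuclear receptor, Btg1 an antiproliferative protein that binds a deadenylase, and Maff and Mafk small Maf proteins, which bind DNA as partners of other leucine zipper factors. Ier2, Ier3 and Ier5 encode proteins named for their immediate early response, of which Ier3 is linked to cell survival and Ier5 to the heat shock factor pathway.

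The libraries held 9917026 to 13739380 counts. All 8 fibroblast markers examined averaged 100 counts or more, with a summed level of 16049 to 18819 CPM (counts scaled to the size of the library) in each library. None of the epithelial, blood and endothelial markers reached that count (0 of 2, 0 of 3 and 0 of 3 in the table), and their summed levels were at most 0.911, 7.58 and 1.71 CPM. Of the 10 genes, 9 reached that mean count and are called well counted below. The exception was Egr2, with 20 to 43 counts per library. All 10 passed the filter on low counts of the edgeR fit.

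The sequences most often tied to rapid turnover were present in these genes in very unequal number, and they are shown so that they can be set against the decay measured below. In the longest annotated 3′ untranslated region of each gene (GENCODE M21), 9 of the 10 held at least 1 ATTTA, against 72.9% of 8934 genes that averaged 100 counts or more. Ier3 had 5 in 613 bases (8.16 per kb, above 98.7% of genes) and Nr4a1 had 3 in 543 bases (5.52 per kb, above 95.5%). Maff had 4 in 1221 bases (3.28 per kb, above 82.9%). Btg1 had 11 in 4166 bases (2.64 per kb) and Egr3 had 7 in 2645 bases (2.65 per kb). Egr2 had 3 in 1200 bases (2.5 per kb) and Mafk had 5 in 2134 bases (2.34 per kb). Egr1 had 2 in 1216 bases (1.64 per kb), close to the median of 1.41 per kb. Below that median were Ier5, with 2 in 2143 bases (0.933 per kb, above 38.5% of genes), and Ier2, with 0 in 755 bases. The longer form TATTTAT occurred 4 times in Ier3, 2 times in Maff and 1 time in Mafk, and in none of the other 7 genes. Of the 8934 genes, 32.5% held at least 1, a share near that of the group. Windows of 30 bases from these regions, in the sense of the mRNA, are given 5′ to 3′ with each ATTTA in capitals. The window starts at base 174 after the stop codon in Ier3, 449 in Nr4a1, 1039 in Maff, 1784 in Mafk and 80 in Btg1.
Ier3: ctaattaatATTTAtgtATTTAtgtatatc
Nr4a1: gATTTAtatttgtgtattttcctggATTTA
Maff: aaatcacATTTAatcttatATTTAgggaga
Mafk: caATTTAatatatggacatttttATTTAaa
Btg1: gatggattatggaATTTAaaccatgtcaca

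Promoter windows of 300 bases (250 before to 50 after a start site, RefSeq, GRCm38.p6) were listed for Egr2, Ier3, Ier5, Nr4a1, Btg1, Maff and Mafk, and not for Egr1, Egr3 and Ier2. They were searched on both strands for the CArG box, for the cAMP response element TGACGTCA and for the Egr site GCGTGGGCG. A CArG box was found in 4 of the 5 windows of Egr2, 3 of which overlap and hold the same box, and in 0 windows of the other 6 genes, against 1.63% of 32851 windows of all genes. One of the 3 windows of Maff held both TGACGTCA, found in 1.79% of all windows, and GCGTGGGCG, found in 0.612%. These windows are given 5′ to 3′ with the motifs in capitals, Egr2 at chr10:67537619-67537918 and Maff at chr15:79347270-79347569, both on the plus strand. The CArG box of Egr2 starts 72 bases before the start site.
Egr2: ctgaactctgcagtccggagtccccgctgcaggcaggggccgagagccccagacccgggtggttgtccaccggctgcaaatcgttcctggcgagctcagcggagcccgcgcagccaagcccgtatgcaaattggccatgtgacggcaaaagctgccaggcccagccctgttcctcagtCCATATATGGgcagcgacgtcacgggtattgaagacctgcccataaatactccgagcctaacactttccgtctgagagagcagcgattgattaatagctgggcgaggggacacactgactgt
Maff: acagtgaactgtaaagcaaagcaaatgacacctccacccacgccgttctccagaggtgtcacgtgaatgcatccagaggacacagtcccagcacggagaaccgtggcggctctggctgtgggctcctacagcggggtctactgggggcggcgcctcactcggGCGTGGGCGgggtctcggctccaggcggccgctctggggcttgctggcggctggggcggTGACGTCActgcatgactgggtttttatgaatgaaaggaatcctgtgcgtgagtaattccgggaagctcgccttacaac

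How fast new RNA replaced old RNA differed widely within the group. After 60 min, when the median NTR of the 9065 genes averaging 100 counts or more was 15.5%, the NTR was 99.3% ± 0.948 (SD, n = 2) for Ier2, 99.0% ± 1.37 for Ier3, 92.2% ± 0.368 for Ier5 and 90.8% ± 1.95 for Egr1. It was 62.5% ± 2.28 for Nr4a1, 55.3% ± 3.20 for Mafk, 46.8% ± 2.59 for Btg1 and 44.1% ± 0.919 for Egr3. Egr2, with few counts, was between Egr1 and Nr4a1 at 75.7% ± 18.9. Maff had the lowest value, 26.5% ± 3.32. The first 4 genes stood above at least 99.6% of all genes at this time, and Maff above 75.5%. In this order the authors' 90% intervals of neighbouring genes overlapped in both 60 min libraries, except for Ier3 and Ier5, Mafk and Btg1, and Egr3 and Maff, which each overlapped in 1 library only.

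Ier2 and Ier3 were near the end of the scale from 60 min on. The NTR of Ier2 (chromosome 8, 84661331 to 84662852, minus strand, GRCm38) was 15.2% in A and 13.2% in B after 15 min, and 56.7% and 67.2% after 30 min. From 60 min on it lay between 98.7% and 100% in all 6 libraries, with 90% intervals that began at 85.9% or higher. Ier3 (chromosome 17, 35821684 to 35822923) was at 20.3% and 13.5% after 15 min, at 72.4% and 67.6% after 30 min, and at 98.1% or higher in each later library. After 30 min, below the end of the scale, the intervals of Ier2 and Ier3 did not overlap in A (47.9% to 65.9% and 66.9% to 77.6%) and overlapped in B (55.6% to 78.5% and 61.9% to 73.2%).

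Ier5 (chromosome 1, 155096361 to 155099636, minus strand) and Egr1 (chromosome 18, 34859823 to 34864984) had lower NTR values than these after 60 min. The intervals of Egr1 and Ier2 overlapped in both libraries after 30 min and also after 60 min. In the 60 min libraries they were 81.9% to 94.8% and 88.6% to 99.5% in A, and 83.8% to 97.2% and 85.9% to 99.2% in B. Those of Ier5 and Ier2 overlapped in both 60 min libraries as well. The NTR of Ier5 was 14.7% and 11.4% after 15 min, 50.1% and 54.2% after 30 min, 91.9% and 92.5% after 60 min, and 99.9% or 100% later. For Egr1 it was 13.2% and 16.5% after 15 min, 55.9% and 68.5% after 30 min, 89.4% and 92.1% after 60 min, 100% and 91.2% after 90 min, and 100% in both 120 min libraries. A posterior maximum of 100% can lie above the 0.95 quantile of the same library, which was 99.7% for Egr1 after 90 min in A, so values at 100% mark the end of the scale and not an exact share.

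The other genes turned over more slowly. Nr4a1 (chromosome 15, 101254269 to 101274795) had an NTR of 7.65% and 3.36% after 15 min, 26.5% and 22.6% after 30 min, 64.2% and 60.9% after 60 min, 88.6% and 91.6% after 90 min and 100% in both libraries after 120 min. Btg1 (chromosome 10, 96617006 to 96622809) went from 4.15% and 2.67% after 15 min to 17.4% and 17.2% after 30 min, 45% and 48.6% after 60 min, 75.8% and 70.1% after 90 min, and 92.8% and 91.6% after 120 min. Mafk (chromosome 5, 139791513 to 139802653) had 21.2% and 20.3% after 30 min, 57.5% and 53.0% after 60 min, 79.2% and 81.7% after 90 min, and 94.9% and 94.5% after 120 min. The replicates of Btg1 and Mafk were close together from 30 min on, except for Btg1 after 90 min. Egr3 (chromosome 14, 70077203 to 70082614) had 15.1% and 7.19% after 30 min, 43.5% and 44.8% after 60 min, 71.1% and 71.9% after 90 min, and 90.3% and 89.4% after 120 min. Of the 9 well-counted genes, Maff (chromosome 15, 79346621 to 79359076) had the lowest NTR from 30 min on in mean, with 10.5% and 9.41% after 30 min, 28.8% and 24.1% after 60 min, 40.8% and 40.6% after 90 min, and 58.3% and 55.3% after 120 min. The paralogues Maff and Mafk had intervals that did not overlap at 60, 90 or 120 min in either library.

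Egr2 (chromosome 10, 67535475 to 67542188) had too few counts for a precise value. Its NTR after 60 min was 89.1% in A with a 90% interval of 55.8% to 97.2%, and 62.3% in B with an interval of 36.8% to 86.2%. These intervals include the 60 min value of Nr4a1 in both libraries and that of Egr1 in A. After 15 min the NTR was higher in A than in B for every gene of the group except Egr1. The intervals of A and B at that time did not overlap for Nr4a1, Ier3, Mafk and Egr3. How often this occurred over all genes was not counted, so it is given as a description of these genes only. Nr4a1 had 6.38% to 9.19% in A and 2.66% to 4.26% in B, Ier3 had 17.2% to 23.8% in A and 11.5% to 15.9% in B, Mafk had 3.29% to 8.78% in A and 0.1% to 1.95% in B, and Egr3 had 2.6% to 9.94% in A and 0.06% to 2.41% in B. For these genes the interval of either library did not hold the NTR of the other.

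**Figure D1:**
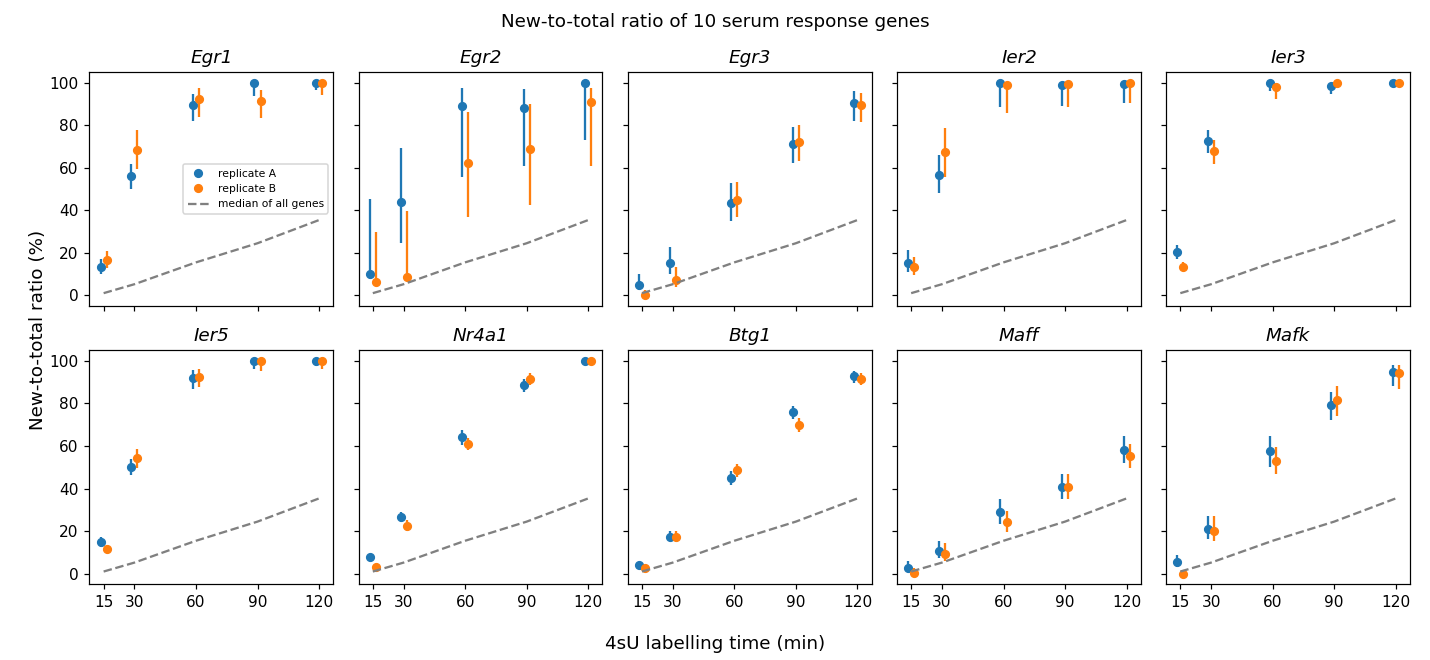
NTR in percent (vertical axis) against labelling time in min (horizontal axis) for each of the 10 genes, with points for libraries A and B, vertical lines for the authors' 90% interval, and a dashed line for the median of all genes. Ier2 and Ier3 are at 98.1% or above from 60 min on, whereas Maff is between 55.3% and 58.3% at 120 min.

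The NTR was multiplied with the level in CPM to divide each transcript into new RNA, made since 4sU was added, and old RNA. New Ier2 RNA was at 5.26 CPM ± 1.00 (SD, n = 2) after 15 min, 23.0 ± 1.01 after 30 min and 32.2 ± 1.87 after 60 min, and stayed within its spread after that (30.7 ± 3.03 and 31.5 ± 2.23). New Egr1 RNA was at 7.76 ± 0.745, 33.1 ± 6.93 and 39.7 ± 5.44 CPM at the same times and at 41.6 ± 12.4 after 120 min. New Ier5 RNA was at 23.2 ± 4.06, 90.3 ± 6.73 and 133 ± 0.303 CPM, and at 137 ± 3.69 after 120 min. For Ier2 and Egr1 the means at 60 and 120 min differed by less than the SD of either group.

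The slower genes kept old RNA for longer. New Btg1 RNA was at 71.9 ± 1.33 CPM after 60 min, 107 ± 5.91 after 90 min and 133 ± 3.09 after 120 min, while old Btg1 RNA went from 152 ± 6.97 after 15 min to 11.3 ± 1.01 after 120 min. New Nr4a1 RNA was at 131 ± 16.4 CPM after 60 min, 182 ± 29.1 after 90 min and 174 ± 10.0 after 120 min, and old Nr4a1 RNA at 250 ± 35.3 CPM after 15 min, 79.1 ± 17.5 after 60 min and 19.6 ± 1.52 after 90 min. For Maff, old RNA at 16.9 ± 1.79 CPM was still close to new RNA at 22.2 ± 0.397 after 120 min. New Ier3 RNA was at 117 ± 20.6 CPM after 60 min, 129 ± 29.5 after 90 min and 146 ± 5.88 after 120 min. The total level of Ier3 without 4sU was 127 ± 5.35 CPM, and the difference of the total after 120 min from it did not pass (log2 fold change 0.20 ± 0.114, SE, edgeR adjusted p = 0.256).

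**Figure D2:**
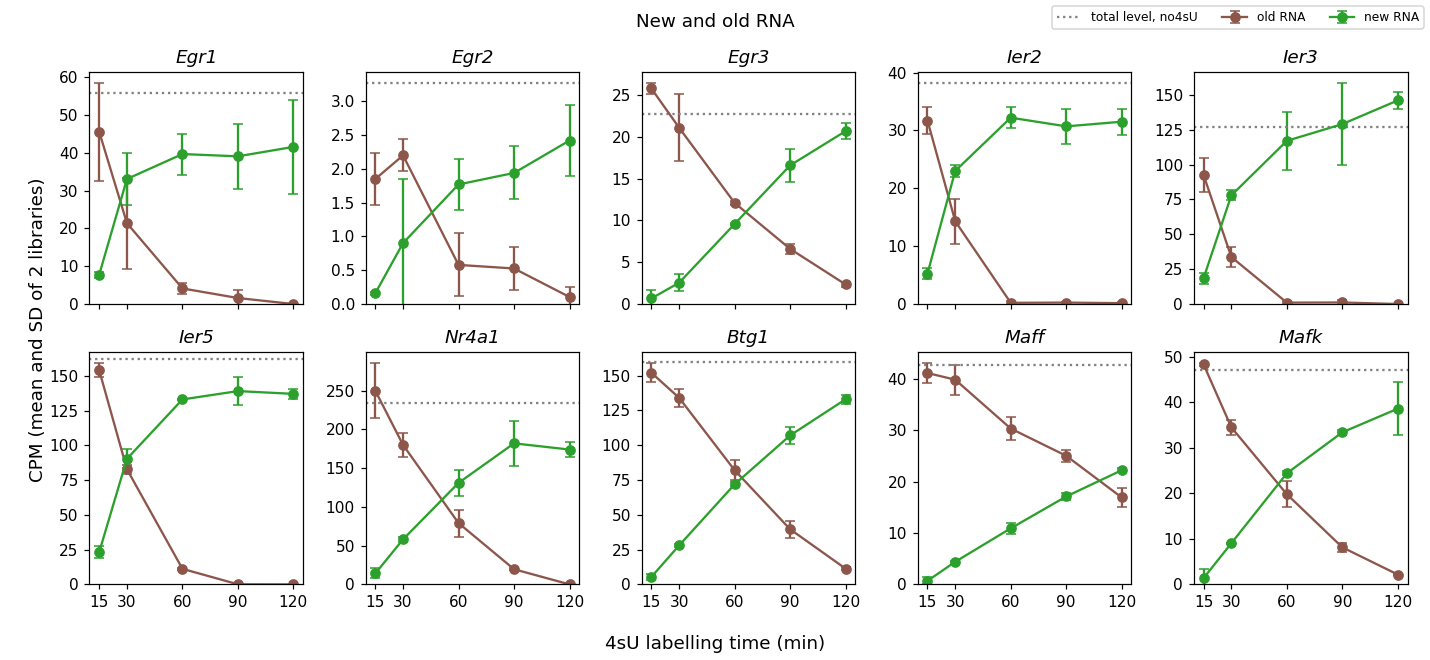
New and old RNA in CPM (vertical axis, mean and SD of 2 libraries) against labelling time in min for each gene, with a dotted line at the total level without 4sU. New RNA of Ier2 lies between 30.7 and 32.2 CPM from 60 min on, and old Maff RNA is still at 16.9 CPM at 120 min.

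Suppose that a transcript decays at a constant rate, that its total level is constant and that labelling is full from the start. Then the half-life computed from the loss of the unlabelled share is the same in every interval between durations. The total level was not constant for all of these genes, as described below. This interval half-life was calculated from the mean NTR of successive groups, and its range is over the 4 pairs of libraries. Between 15 and 30 min it was 10.2 min for Ier3 (9.12 to 11.6), 12.8 min for both Egr1 (10.2 to 16.3) and Ier2 (10.7 to 15.5), and 17.4 min for Ier5 (15.8 to 19.4). Between 30 and 60 min it was 14.8 min for Egr1 (12.1 to 19.2) and 11.5 min for Ier5 (11 to 12). For Egr1 these ranges overlapped, and for Ier5 they did not. Later intervals could not be computed for these 4 genes because the NTR was at or above 99% in at least 1 library.

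In the slower genes the interval half-life became shorter at each step. For Btg1 it was 67.0 min (63.4 to 71.1) between 15 and 30 min, 47.2 min (43.6 to 51.2) between 30 and 60 min, 30.8 min (25.3 to 38.5) between 60 and 90 min and 16.8 min (14.7 to 19.7) between 90 and 120 min. Mafk gave 50.6, 36.4, 25.1 and 16.0 min over the same intervals, and Nr4a1 gave 46.2, 29.7 and 15.6 min over the first 3. For these genes the ranges of successive intervals did not overlap. Egr3 gave 112, 44.9, 30.9 and 20.2 min, of which the first had a range of 63.4 to 456. Maff changed less, from 118 min to 102, 96.9 and 65.7 min, and the first 3 of its ranges overlapped. The median over all genes was 234, 182, 184 and 138 min.

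**Figure D3:**
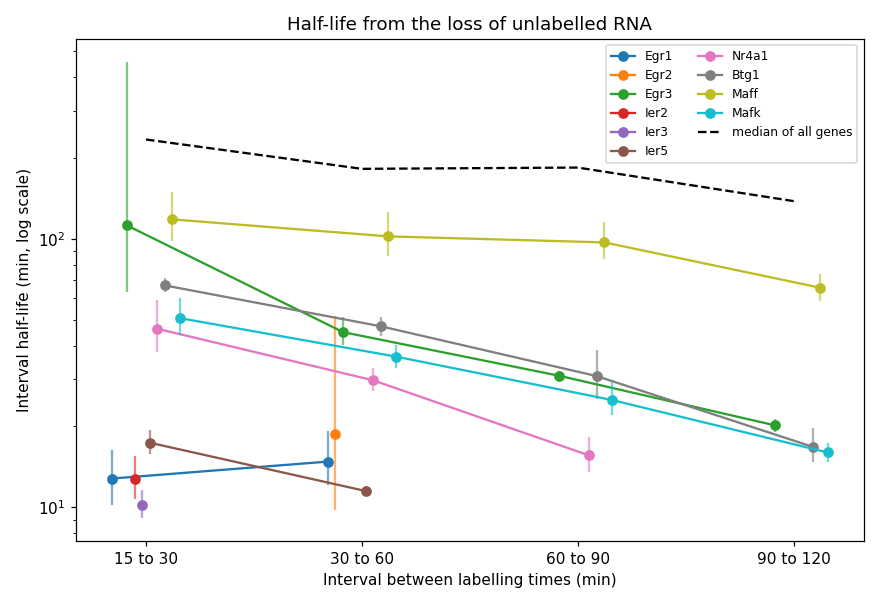
Interval half-life in min (vertical axis, log scale) for each interval between successive labelling times (horizontal axis), with lines for the lowest and highest value over the 4 pairs of libraries and a dashed line for the median of all genes. Btg1, Mafk, Nr4a1 and Egr3 decline from one interval to the next, and each gene lies below the dashed line, with only the range of Egr3 at 15 to 30 min reaching above it.

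The apparent half-life over the whole of the labelling, the labelling time times ln 2 over -ln(1-NTR), was related to labelling time in the libraries with an NTR between 1% and 99%. Its formula takes labelling as full from time 0. A straight line through ln(1-NTR) against labelling time, for NTR below 0.95, reached 0 at a median of 16.2 min over 9058 genes. For the 10 genes it did so between 3.57 min (Egr1) and 25.3 min (Egr3). What such a start adds to the apparent half-lives at short durations was not tested. A decline was general in these data. Of 9041 genes with at least 6 such libraries, 93.2% had a negative Pearson's r, with a median of -0.711, and 64.9% passed an exact permutation test with p-values adjusted over all of them. Among the 9 well-counted genes of the group r was negative in each and passed in 5, Maff, Mafk, Btg1, Egr3 and Nr4a1, a share near this background. For Maff, Pearson's r was -0.822 (n = 9, exact permutation p = 4.41e-05, adjusted 0.000989), and for Mafk it was -0.824 (n = 9, exact permutation p = 4.41e-05, adjusted 0.000989). For Btg1, r over 10 libraries reached -0.759 (exact permutation p = 0.00284, adjusted 0.00955). For Egr3, r was -0.813 (n = 9, exact permutation p = 0.00309, adjusted 0.0101), and for Nr4a1 it was -0.712 (n = 8, exact permutation p = 0.0167, adjusted 0.0301). Without the 2 libraries farthest from the median time, r of these 5 genes was between -0.841 and -0.715. Spearman's rho passed in 8 of the 9 genes and in 62.1% of all genes. It was -0.985 for Btg1 (exact permutation p = 1.76e-05, adjusted 0.000308), -0.983 for both Maff and Mafk (n = 9, exact permutation p = 8.82e-05, adjusted 0.000548), -0.976 for Nr4a1 (n = 8, exact permutation p = 0.000794, adjusted 0.00246) and -0.958 for Egr3 (n = 9, exact permutation p = 0.000176, adjusted 0.00103). With all NTR values above 0 and below 1 in place of this range, r passed in 4 of the 9 (Egr3, Ier5, Nr4a1 and Btg1) and not for Maff (exact permutation, adjusted p = 0.0987) or Mafk (0.229), against 58.6% of all genes, while rho still passed in 8. The apparent half-life of Btg1 was 315 min ± 98.2 (SD, n = 2) after 15 min, 66.1 ± 5.09 after 60 min and 32.6 ± 1.33 after 120 min, and that of Nr4a1 was 217 ± 123 after 15 min, 42.4 ± 2.62 after 60 min and 27.0 ± 2.50 after 90 min.

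Ier2, Ier3, Ier5 and Egr1 had only 6 or 7 libraries in this range and did not pass with Pearson's r, which was between -0.844 (Ier5) and -0.633 (Egr1), with exact permutation p-values of 0.0667 to 0.150 and adjusted values of 0.0912 to 0.185. With Spearman's rho, Ier2, Ier3 and Ier5 had an exact permutation p of 0.0222 (adjusted 0.0368) and Egr1 one of 0.238 (adjusted 0.292). The apparent half-life of Egr1 was 65.6 min ± 11.4 (SD, n = 2) after 15 min, 21.7 ± 5.24 after 30 min and 17.5 ± 1.55 after 60 min, and that of Ier5 was 75.6 ± 14.6, 28.3 ± 2.29 and 16.3 ± 0.301 at the same times.

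Total RNA of these genes was compared between groups to see whether their measured level changed as labelling became longer. Levels are given in CPM scaled by TMM, and differences as log2 fold changes of edgeR's quasi-likelihood test with Benjamini-Hochberg adjustment over all genes tested. Over the 10 labelled libraries, 7 of the 10 genes had a slope with labelling time that passed the threshold. Egr1, Ier2, Ier5, Nr4a1, Btg1 and Mafk fell and Ier3 rose, while 19.5% of the 11526 genes tested fell and 18.3% rose, 37.8% in all. The median slope was -0.12 log2 units per 60 min for the 10 genes and 0.00365 for all genes. With library size in place of TMM the split over all genes moved from 2111 higher and 2251 lower to 1172 higher and 3031 lower, and that of the 10 genes to 1 higher and 7 lower, with Maff added.

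The steepest fall was that of Nr4a1. Its level was 239 and 230 CPM in no4sU libraries A and B, 244 and 285 after 15 min, 229 and 246 after 30 min, 186 and 234 after 60 min, 182 and 221 after 90 min, and 167 and 181 after 120 min. Both 120 min libraries lay below every library of the no4sU, 15 min and 30 min groups. The slope was -0.32 ± 0.0354 (SE) per 60 min (edgeR adjusted p = 3.27e-09). The log2 fold change of 120 against 15 min was -0.61 ± 0.0954 (adjusted p = 0.000362), and that of 120 min against no4sU was -0.43 ± 0.0955 (adjusted p = 0.00585). The last of these did not pass without 120 min replicate A (-0.37, edgeR adjusted p = 0.0974).

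Ier5 was at 169 and 156 CPM without 4sU, 177 and 178 after 15 min, 171 and 176 after 30 min, 144 and 144 after 60 min, 146 and 132 after 90 min, and 140 and 135 after 120 min. All 6 libraries from 60 min on were below all libraries of the other groups. Its slope was -0.23 ± 0.0276 (SE, edgeR adjusted p = 1.14e-08), and it was lower after 120 than after 15 min by a log2 fold change of -0.37 ± 0.0612 (adjusted p = 0.000511). Against no4sU the change after 120 min was -0.24 ± 0.0612 (adjusted p = 0.0143), which did not pass in a fit of these 2 groups alone (edgeR adjusted p = 0.169) or without 120 min replicate A (0.0687) or B (0.133).

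Ier3 was the only one of the 7 that rose. Its level was 123 and 131 CPM without 4sU, 105 and 117 after 15 min, 104 and 119 after 30 min, 131 and 104 after 60 min, 152 and 108 after 90 min, and 150 and 142 after 120 min. The 120 min libraries were above those of no4sU, 15 and 30 min, but the 60 and 90 min libraries were far apart and overlapped the earlier groups. The slope was 0.23 ± 0.0423 (SE) per 60 min (edgeR adjusted p = 2.87e-05), and 0.14 with the no4sU libraries included at time 0 (edgeR adjusted p = 0.0406). The log2 fold change of 120 against 15 min was 0.39 ± 0.116 (adjusted p = 0.0224). This call was lost with DESeq2 (adjusted p = 0.157) and, in edgeR, without any single library of the 2 groups (adjusted p = 0.0573 to 0.202).

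Egr1 had a slope of -0.27 ± 0.0753 (SE, edgeR adjusted p = 0.00344), but its libraries A and B were far apart in each group. It was at 66.6 and 45.2 CPM without 4sU, 62.9 and 43.7 after 15 min, 67.9 and 41.1 after 30 min, 48.8 and 39.0 after 60 min, 45.2 and 36.1 after 90 min, and 50.3 and 32.8 after 120 min. Library A was higher than B in 6 of 6 groups, and the groups overlapped. Within each letter, however, every value from 60 min on was below every value without 4sU and after 15 or 30 min. In a fit with the replicate letter as a term, added after these values were seen, Egr1 and Nr4a1 were 2 of 14 genes that differed between letters in the labelled libraries (0.121% of 11526, with 0.0607% higher and 0.0607% lower in B). The slope did not pass with DESeq2 (-0.26, adjusted p = 0.206) or without 120 min replicate B (-0.20, edgeR adjusted p = 0.0726).

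Smaller slopes were found for Ier2, Mafk and Btg1. The level of Ier2 was 43.6 and 32.8 CPM without 4sU, 39.3 and 34.5 after 15 min and 33.4 and 29.9 after 120 min, with a slope of -0.16 ± 0.0445 (SE, edgeR adjusted p = 0.00324). Mafk was at 50.9 and 48.5 CPM after 15 min and 45 and 36.5 after 120 min, with a slope of -0.14 ± 0.0406 (adjusted p = 0.00472) that was lost without 120 min replicate B (-0.0996, edgeR adjusted p = 0.0969). Btg1 was at 163 and 151 CPM after 15 min and 146 and 143 after 120 min, with a slope of -0.0911 ± 0.0241 (adjusted p = 0.00241). Egr3 (-0.0823, adjusted p = 0.210), Maff (-0.0623, adjusted p = 0.188) and Egr2 (0.00938 ± 0.141, adjusted p = 0.968) did not pass with edgeR.

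**Figure D4:**
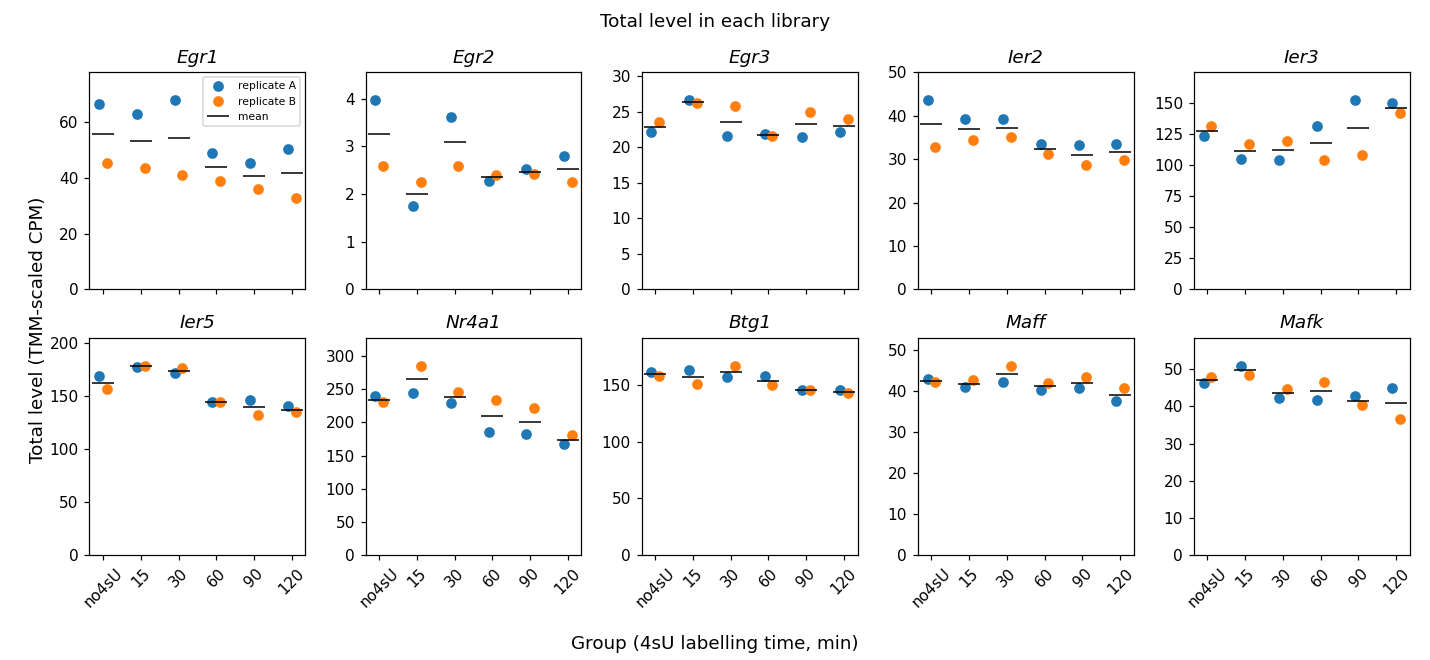
Total level in TMM-scaled CPM (vertical axis, from 0) in each library by group (horizontal axis), with points for A and B and a bar for the mean. The 6 libraries of Ier5 from 60 min on lie below the others, and for Egr1 library A is above library B in 6 of 6 groups.

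Between single groups fewer genes passed. At 120 against 15 min, Nr4a1, Ier5 and Mafk were lower and Ier3 was higher (4 of 10), while 11.3% of 11564 genes were lower and 7.93% higher. Mafk had a log2 fold change of -0.29 ± 0.0910 (SE, edgeR adjusted p = 0.0286), and the call was lost with DESeq2 (-0.29, adjusted p = 0.0759). In edgeR it was lost without 15 min replicate A (-0.26, adjusted p = 0.186) or B (-0.33, adjusted p = 0.0766), and without 120 min replicate B the change itself was smaller (-0.15, adjusted p = 0.379). At 120 min against no4sU, 2 of 10 passed, Nr4a1 and Ier5, both lower, against 8.78% of all genes lower and 5.43% higher. With library size alone the split over all genes moved from 917 higher and 1311 lower to 426 and 1867 at 120 against 15 min, and from 628 and 1015 to 203 and 1684 after 120 min against no4sU. Between 15 and 90 min none of the 10 passed against no4sU with edgeR or DESeq2 (0 in each). The background over all genes was 0.0% after 15 min and after 30 min, 0.0173% after 60 min (0.00865% higher and 0.00865% lower) and 1.39% after 90 min (0.45% higher and 0.943% lower). At an unadjusted edgeR p under 0.05 there were 2 of the 10 after 15 min, 0 after 30 min, 1 after 60 min and 4 after 90 min, where all genes gave 5.34%, 5.79%, 7.74% and 16.2%. Egr1 was at -0.05 ± 0.211 (SE) after 15 min and -0.00694 ± 0.211 after 30 min, and Ier2 at -0.03 ± 0.115 and -0.02 ± 0.115.

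The slopes were set beside those of genes with a like NTR. Genes within 5 percentage points of the 60 min NTR of Nr4a1 had a median slope of -0.15 log2 units per 60 min (159 genes, 5th to 95th percentile -0.33 to 0.0391), and Nr4a1 lay at percentile 6.29 among them. Ier3 lay at percentile 95.7 among 23 such genes, whose median was -0.11. Egr1 was at percentile 17.4 and Ier5 at 24.4, and Ier2, Mafk and Maff lay between 39.1 and 57.7. Egr3 at 74.6 and Btg1 at 75.2 had slopes above those of most genes of their NTR. Egr2 was at 88.9, but its place is uncertain. Its 60 min NTR was 89.1% in A and 62.3% in B, and its slope of 0.00938 had an SE of 0.141. These percentiles are a description and were not tested.

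**Figure D5:**
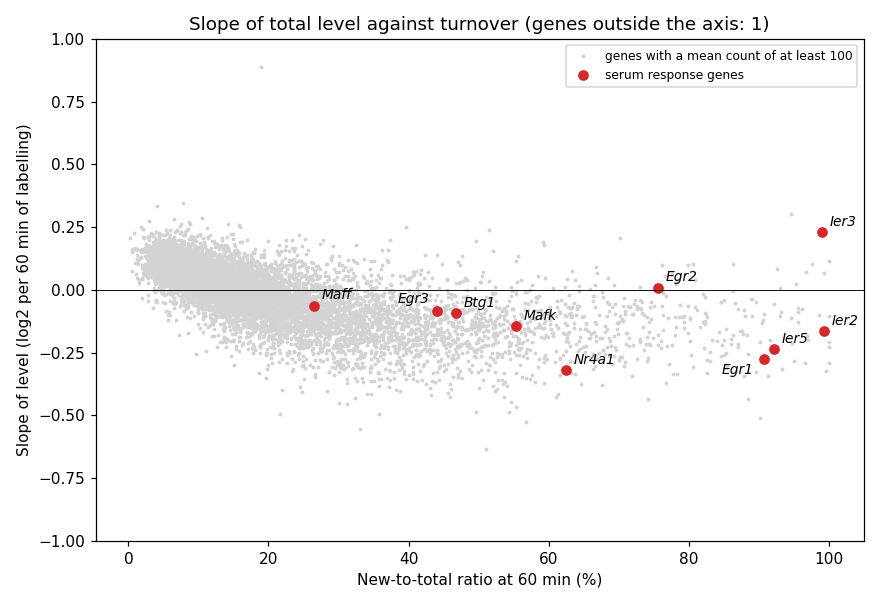
Slope of total level in log2 units per 60 min of labelling (vertical axis) against the NTR at 60 min in percent (horizontal axis) for 9065 genes in grey, 1 of them outside the axis, with the 10 serum response genes in red. Ier3 lies at 0.23 above most genes of its NTR, and Nr4a1 at -0.32 near the lower edge.

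Per length of transcript, as the authors give it, the order of abundance over the 12 libraries was not that of turnover. Ier3 was the most abundant at a mean of 110 CPM per kb (91.9 to 134), followed by Nr4a1 at 86.3 (65.2 to 112), Ier5 at 47.5 (40.2 to 54.4), Btg1 at 30.8 (28.5 to 33.4), Ier2 at 22.7 (18.8 to 28.6) and Maff at 21.4 (19.2 to 23.6). Mafk was at 14.4 (11.8 to 16.4), Egr1 at 10.8 (7.31 to 15.1), Egr3 at 5.96 (5.42 to 6.76) and Egr2 at 0.884 (0.593 to 1.34). The ranges of neighbours overlapped for Ier3 and Nr4a1, Btg1 and Ier2, Ier2 and Maff, and Mafk and Egr1, and for no other neighbours in this order. Levels in bulk RNA do not tell fewer cells with a transcript from less of it per cell.

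Other genes of the pathway were taken from lists that were chosen with earlier results of these data known. The counts from each list, here and in the next paragraph, are therefore a description only. Of 19 genes of the Ras, Raf, MEK, ERK and SRF route, 18 were tested, and 2 had a rising and 6 a falling slope with labelling time (edgeR). Of all genes tested, 18.3% rose and 19.5% fell, which is the background for each list here. The median NTR after 60 min of the 18 that were well counted was 15.9%, next to 15.5% for all genes. It was highest in the actin-regulated SRF cofactors Mrtfb (45.8% ± 2.51, SD, n = 2) and Mrtfa (33.4% ± 1.41) and lowest in the MEK gene Map2k2 (6.61% ± 1.87) and the ERK gene Mapk3 (6.30% ± 0.311). Of 43 other immediate early genes, 42 were tested, 26 fell and 0 rose with labelling time by edgeR, and the median NTR after 60 min of the 37 well-counted ones was 85.1%. Dusp1, a phosphatase of MAP kinases, was at 100% in both libraries and Myc at 97.1% ± 0.148, whereas Jund (24.5% ± 1.42) and the urokinase receptor gene Plaur (22.0% ± 0.0778) were the lowest. The median slope was -0.13 for this list and 0.00498 for the upstream genes. With library size alone it was -0.17 and -0.0294, with 29 of the 42 immediate early genes lower and 0 upstream genes higher. Genes of any class within 5 percentage points of the 60 min NTR of Egr1 (90.8%) and of Egr2 (75.7%) had median slopes of -0.13 and -0.12. Genes of the list may be among them.

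Among 17 relatives and partners of the 10 genes, 14 were tested, of which 7 fell and 1 rose, against 19.5% and 18.3% of all genes. Their median NTR after 60 min was 55.1% over 13 well-counted genes. Btg2, the paralogue of Btg1 and a known p53 target, was at 94.6% ± 7.69 (SD, n = 2) with a slope of 0.30 (edgeR adjusted p = 0.0063), and Ier5l was at 84.8% ± 1.06 with a slope of -0.22 (adjusted p = 0.00128). Btg3 (13.3% ± 1.17) and Nab1, which encodes a corepressor of Egr proteins (9.19% ± 1.13), had the lowest NTR. All 8 reference transcripts known as long-lived had a rising slope (edgeR), with a median of 0.11 and a median NTR of 5.76%, and 6 of the 8 did so with library size alone.

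The genes outside the group whose NTR over the 10 labelled libraries was most like that of Ier2 were Myc, Ccnl1 and Txnip, with root mean square differences of 2.26, 3.77 and 4.29 percentage points, where the median gene differed by 63.5. For Egr1 they were Txnip, Myc and Dnm3os (4.35, 5.02 and 5.13, against a median of 60.6), and for Btg1 they were Runx2, Zfand5 and Gtf3c4 (1.78, 2.02 and 2.02, against a median of 36.8). Within the group, Egr3 and Btg1 had the most similar profiles, at 4.08 percentage points, followed by Egr1 and Ier2 at 4.94.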

How the data were processed

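RNA of NIH-3T3 cells from 12 libraries in 6 groups of 2 was used. The submitters' processing notes name cutadapt, Bowtie2 2.3.0 and STAR 2.7.10b. The counting tool, genome build, annotation and strand setting were not given in the sources used here. Estimated counts per gene were deposited by the authors, of which 20.4% were not whole (tolerance 1e-06). They were rounded before testing. The NTR was deposited as a fraction with posterior mean, posterior maximum (used here) and 0.05 and 0.95 quantiles, per the file headers. The deposited alpha and beta, parameters of the NTR distribution (entered as a score with no fixed range), were not used, and 0 columns belonged to other samples.

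Counts were tested with edgeR 4.0.16 (R 4.3.3), with filterByExpr, TMM (factors 0.970 to 1.02) and the quasi-likelihood test. All 12 libraries entered the group contrasts (11564 genes) and the 10 labelled libraries the slope (11526 genes). DESeq2 1.42.0 was the other tool. The scripts were tested on simulated data. Permutation tests of half-life used all orders of the labelling times, with p adjusted over 9041 genes. Python 3.11.15 with scipy 1.17.1 was used. The named genes were the 10 members, the 2 highest and 2 lowest of each list by NTR at 60 min, and the 3 nearest profiles of Egr1, Ier2 and Btg1. Members and lists were chosen with earlier results of these data known.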

Additional observations from a re-analysis of the deposited data

How the results depend on the processing

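Of the 10 genes, with library size alone 1 passed the edgeR threshold at 90 min and 4 at 120 min against no4sU. Of all 11564 genes, 284 and 1887 passed there. DESeq2 passed 1344 of 11564 at 120 against 15 min and 3663 of 11526 by slope. For the other settings below no count over all genes is given, so their counts describe the 10 genes only. With no filter on low counts 1 of the 10 passed at 60 min, 3 at 90 min and 4 at 120 min. In a fit of only the groups compared, 1 passed at 120 min against no4sU and 7 at 120 against 15 min, where DESeq2 gave 2. Leaving out single libraries, the counts were 0 to 1 at 15 min, 0 to 3 at 60 min, 0 to 3 at 90 min and 0 to 5 at 120 min against no4sU, with the highest values without no4sU replicate B and, at 120 min, 0 without 120 min replicate A. For 120 against 15 min they were 2 to 3. The 7 slopes became 5 to 7, with 5 without 120 min replicate B, and 6 with DESeq2.

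Over all genes the replicate letter showed little pairing of the libraries. The correlation of A's deviation from its group mean between groups, over genes, was -0.0726 to 0.0896 for 15 pairs of groups. Such a value over all genes cannot decide this for single genes, and Egr1 and Nr4a1 differed between letters as described below. With the letter as a replicate block 1 of the 10 genes, Egr1, passed at 90 min against no4sU, 3 at 120 min against no4sU and 5 at 120 against 15 min, both with Egr1 added (edgeR adjusted p = 0.00383 and 0.00877), and 7 slopes passed, with 2.45e-06 for Egr1. How many of all genes passed in this fit is not given, so these counts describe the 10 genes only.

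Among alternatives for single genes, 290 kept the sign and the side of the threshold, 16 lost and 16 gained a call, and 8 turned the sign, each for a gene that had not passed. Egr3 at 120 min against no4sU went from 0.0119 to -0.0543 with library size alone and to -0.0508 to 0.0708 without single libraries, below 0 without no4sU replicate A (-0.0237) or 120 min replicate B (-0.0508). The slope of Egr2 went from 0.0094 to -0.025 with library size alone, -0.1111 with no4sU included at time 0, and -0.0962 to 0.1299 without single libraries, below 0 without 15 min replicate A (-0.0962) or B (-0.0221) or 120 min replicate A (-0.0419). With all NTR values above 0 and below 1, 2 genes in place of 5 had an apparent half-life related to time by Pearson's r with p adjusted over the 9 genes, and 4 with p adjusted over all genes, an adjustment chosen after seeing the data that gave 5 in the main range. Spearman's rho passed in 8 in each case. With the posterior mean as the NTR, rho of Ier2 was -0.443 over 10 libraries and did not pass (permutation p = 0.21, adjusted over the 9 genes 0.236). No other gene changed side there by rho or r. The relation to time was not run without replicate A or B, which leaves 5 libraries or fewer. The cause of these changes was not tested. The posterior mean moved the NTR beyond the replicate SD in 7 cases and by less in 43, the most for Egr2 at 15 min (20.5%), whose counts limit it.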

Other observations

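Library A had more Egr1 and Ier2 than library B in 6 of 6 groups, and library B had more Nr4a1 and Maff in 5 of 6. How many of all genes split in this way was not counted. The difference between letters was noticed in the values of these genes. It was examined afterwards with the replicate letter as a term beside the groups in edgeR. Over the 12 libraries 2 of 11564 genes (0.0173%) had a difference between letters past an adjusted p of 0.05. They were Egr1 (B against A, log2 fold change -0.52 ± 0.0524, SE, edgeR adjusted p = 8.1e-05) and Ccn1, a matricellular gene induced by serum (-0.22 ± 0.0301, adjusted p = 0.00312). Ier2 (-0.21, edgeR adjusted p = 0.541), Nr4a1 (0.16, adjusted p = 0.541) and Maff (0.07, adjusted p = 0.814) did not pass in that fit.

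In the 10 labelled libraries alone 14 of 11526 genes (0.121%) differed between letters, 7 higher and 7 lower in B. Egr1 (-0.52 ± 0.0535, SE, edgeR adjusted p = 2.4e-08), Ccn1 (-0.21, adjusted p = 1.61e-05), Jun (-0.15, adjusted p = 0.0300), Rgs16, Zcchc2, Bc1 and Lrrk2 were lower in B. Nr4a1 (0.21 ± 0.0307, adjusted p = 7.25e-05), Klf4 (0.15, adjusted p = 0.00563), Per1 (0.24, adjusted p = 0.0108), Vegfa (0.17, adjusted p = 0.00166), Ackr3, and the pseudogenes Ftl1-ps1 and Rps18-ps4 were higher in B, the last with the largest difference (1.03, edgeR adjusted p = 0.0400). Values are given for the members and for growth factor response and related genes, chosen after their values were seen. The labels do not say what the letters A and B share across durations, and the cause was not tested.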
